A study of Homo sapiens with 47 samples.

Results

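The exportins are the members of the importin beta superfamily that carry cargo out of the nucleus. Their genes XPO1, CSE1L, XPO4, XPO5, XPO6, XPO7 and XPOT were taken by symbol from a table of FPKM values (fragments per kilobase of gene, scaled to the mapped fragments of the library), which gave 7 genes of 57507 in all, each with 1 row. RNA was measured in 47 libraries. HAP1, a near-haploid line from a chronic myeloid leukemia, gave 32 libraries: WT (wild-type), EV (Cas9 vector without a guide RNA) and the 6 clones C1 to C6, with 4 replicates each. Each of C1 to C6 descends from 1 sorted cell and carries a hypomorphic, that is weakened, allele of NUP58, a gene of the nuclear pore, after cutting with a pair of guide RNAs in the gene. The study chose these 6 as its smallest viable clones and sequenced their RNA at passage 1, the earliest harvest. No such choice by size is described for WT or EV, and it cannot be told apart from the edit here. HCT116, a near-diploid colorectal carcinoma line, gave 15 libraries: 1 NUP58 clone with 4 replicates, and 11 controls that were WT (2), EV1 (3), EV2 (4) or of 2 libraries whose title and genotype give different control lines. The HCT116 clone was edited on both alleles. The study describes puromycin selection and dilution to single cells for HCT116 cells after transfection, which need not hold for the WT controls. A clone therefore stands for 1 edited founder cell and not for NUP58 loss in general. The labels number the replicates without saying whether they were separate cultures, so the p-values measure the spread between these libraries. In the main fit of the 6 clones against WT this is the spread within lines. Differences between the founder cells do not enter that p. Bulk values average over all cells of a dish, and fewer cells with a transcript cannot be told apart from less of it per cell.

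Exportins bind cargo together with the GTP-bound form of Ran in the nucleus, pass through the nuclear pore and let go when Ran hydrolyses its GTP in the cytoplasm. XPO1 (CRM1) is the general exporter of proteins with a leucine-rich export signal, and CSE1L (CAS) returns importin alpha to the cytoplasm so that it can take up new import cargo. XPO5 exports microRNA precursors, XPOT exports tRNA, XPO4 exports the translation factor EIF5A and SMAD3 and also imports some proteins, XPO6 exports actin with profilin, and XPO7 exports a broad set of proteins without the leucine-rich signal.

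NUP58 served as the check of the labels. Its level was 41.3 ± 8.07 FPKM (SD, n = 4) in WT and 40.3 ± 4.57 in EV, and its 24 values in C1 to C6 ran from 7.98 to 28.0, below every WT and EV library. In HCT116 the library labelled clone replicate 3 had 44.7 FPKM of NUP58, in the range of the controls, while the library labelled EV2 replicate 3 had 23.9, near the other clone libraries at 23.3 to 25.3. HCT116 results are therefore given also without the libraries numbered 3. HAP1 libraries summed to 604053 to 654081 FPKM and HCT116 libraries to 619798 to 721992, with 18020 to 19456 genes above 0. Read depth was not given; steps between the lowest FPKM values put the depth of HAP1 libraries at 0.747 to 1.15 times that of WT replicate 1. EPCAM, an epithelial marker, was at 102 to 272 FPKM in HCT116 with a median of 0.566 in HAP1, whereas CDX1 had a median of 0 in both. PTPRC, which marks blood cells, was at 0 in every HAP1 library. Of 6 colorectal markers 2 had a median of at least 1 FPKM in HCT116 and 1 in HAP1 (CDX2, 3.87). Of 6 blood markers 2 did so in HCT116 and 1 in HAP1, RUNX1, which was higher in HCT116 (8.05 against 1.99). Neither line therefore carried the full marker set of its origin. ASNS (asparagine synthetase), a target of the ATF4 amino acid response, varied within lines from 32.5 to 451 FPKM in HAP1, and replicate 2 was highest in 7 of the 8 HAP1 lines, all but C6.

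Within HAP1 the exportins kept a stable order of level. The medians over 32 libraries were 184 FPKM for XPO1, 168 for CSE1L, 83.5 for XPO6, 69.8 for XPOT, 47.4 for XPO5, 36.0 for XPO7 and 15.1 for XPO4. CSE1L exceeded XPO6, XPOT exceeded XPO5 and XPO7 exceeded XPO4 in 32 of 32 libraries. XPO1 lay above CSE1L in 28 of 32, XPO6 above XPOT in 25 and XPO5 above XPO7 in 25, so these neighbours overlapped. In HCT116 the order was the same except at the top, where CSE1L (median 128 FPKM) and XPO1 (126) did not separate and CSE1L was the higher in 7 of 15 libraries.

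**Figure D1:**
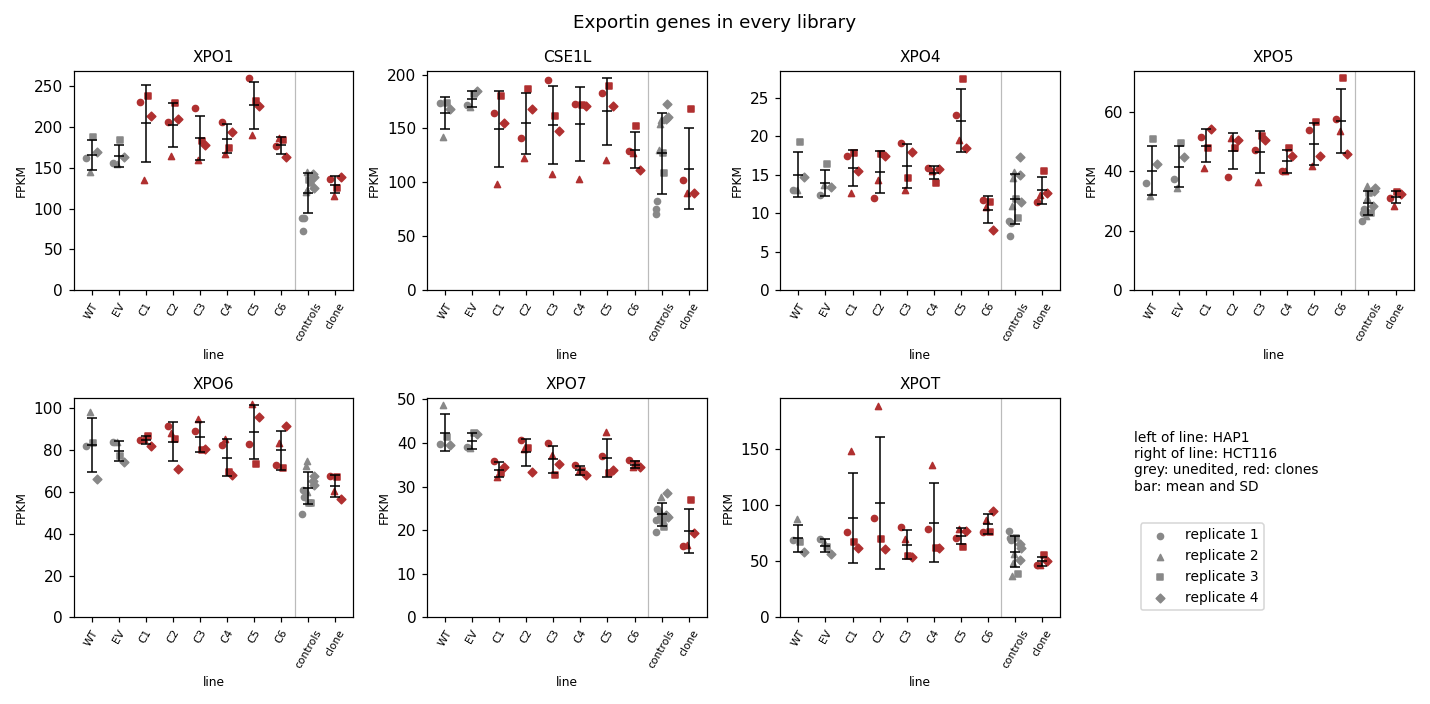
FPKM of the 7 exportin genes in each of the 47 libraries (y axes from 0), by line on the x axis, with the mean and SD as bars and the replicate number as the symbol. XPO7 lay below every WT and EV library in 20 of 24 clone libraries of HAP1. XPO4 had its highest line mean in C5 and its lowest in C6. The 3 highest XPOT values were replicates 2 of C1, C2 and C4.

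XPO7 had lower values in most clone libraries than in WT, and its call against WT did not hold in every setting. Its 4 WT values were 39.8, 48.6, 41.3 and 39.6 FPKM, and its 4 EV values were 39.1, 38.7, 42.3 and 42.0. The 24 clone libraries ran from 32.1 to 42.6 FPKM with a median of 34.8, and 21 of them lay below all WT libraries and 20 below all WT and EV libraries. The mean of the clones was lower than WT by 0.24 on the log2(FPKM + 1) scale (log2 fold change -0.24, SE 0.06), with an adjusted p of 0.0182 by limma over 13180 genes. XPO7 was the 1 member called in this comparison, against 6.6% of all genes tested, and the other 6 missed the threshold. The test without moderation also allowed unequal variances and took the 24 clone libraries as 1 group, without regard to clone. It did not call XPO7 (adjusted p = 0.259), while calling 439 genes. No difference between the clones was called for XPO7 (F = 1.04, limma adjusted p = 0.705). The change against WT was largest in C4 (-0.32) and C1 (-0.31), followed by C6 (-0.26), C3 (-0.22), C5 (-0.21) and C2 (-0.16), and it was -0.06 in EV. The clone library was above the WT library of the same number in 2 of 24 pairs. WT replicate 2 had the highest XPO7 value of all 32 libraries and weighed on the call: without it the change was -0.18 (limma adjusted p = 0.137), and without all libraries numbered 2 it was -0.19 (0.1002). With EV in place of WT the change was -0.19 (limma adjusted p = 0.0707), and with WT and EV together it was -0.21 (0.0024). The 49 tested genes within 5 Mb of XPO7 had a median of -0.00 in the mean of the clones, with 25 lower. Within 1 Mb the median was -0.07, with 10 of 14 genes lower. By clone the 1 Mb median ran from -0.12 in C3 to 0.18 in C2, the clone where XPO7 fell least. A part of the region in the XPO7 levels was not tested.

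Taken 1 clone at a time, no member passed the threshold in the limma fit of that clone and WT without a block or a covariate. Other settings called members in C1, C5 and C6 and are given with the processing. The background, the share of all genes called, was 11.7% for C6, 7.55% for C5, 0.732% for C2, 0.479% for C1, 0.16% for C4, 0.0911% for C3 and 0.038% for EV. At an unadjusted p under 0.05 the limma fits held XPO7 in C1, XPO7 in C4, XPO1 and XPO4 in C5, and CSE1L, XPO4, XPO5 and XPO7 in C6, with none in C2, C3 or EV. Many genes met that p: 3533 of 13371 in C6, 3076 of 13164 in C5, 1542 of 13160 in C1 and 870 of 13125 in C4. It was met by 1666 of 13120 genes in C2, 633 of 13179 in C3 and 274 of 13153 in EV. The test without moderation called 0 members in each of these fits.

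XPO1, the general export receptor, had higher values in most clone libraries, but the difference did not pass the threshold. The WT values were 162, 144, 188 and 169 FPKM and the EV values 156, 155, 184 and 163. The clone libraries ran from 136 to 260 FPKM with a median of 192, and 13 of 24 lay above all WT and EV libraries while 1, C1 replicate 2, lay below them. The mean difference was 0.24 (SE 0.11, limma adjusted p = 0.20). With WT and EV together as the control it was 0.24 (limma adjusted p = 0.0357), the setting in which XPO1 was called. C5 stood highest at 260, 190, 231 and 226 FPKM, all above the highest WT library (188), with a difference of 0.45 (SE 0.12, limma adjusted p = 0.0513). C5 exceeded the WT library of the same number in 4 of 4 pairs, and all 6 clones did so in 19 of 24. Between clones no difference was called for XPO1 (F = 1.39, limma adjusted p = 0.547).

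CSE1L, the recycling receptor of importin alpha, spread more widely within clones than within WT or EV. WT had 174, 142, 174 and 168 FPKM and EV had 171, 170, 182 and 185. The 24 clone libraries ran from 98.6 to 195 FPKM, with 9 below and 5 above all WT libraries, and their mean differed from WT by -0.14 (SE 0.14, limma adjusted p = 0.645). C6 was the lowest line at 129, 127, 153 and 111 FPKM, with a difference of -0.34 (SE 0.12, limma adjusted p = 0.0900) and a lower value than the same-numbered WT library in 4 of 4 pairs. In all 8 HAP1 lines the lowest CSE1L value was in the library with the most ASNS, and the same held for XPO1 in 8 of 8 lines. In C1 to C5 that library was replicate 2, with CSE1L at 98.6, 123, 107, 103 and 120 FPKM, and in C6 it was replicate 4, at 111. With ASNS as a covariate, added after seeing the data, the CSE1L difference was -0.16 in the 6 clones (limma adjusted p = 0.247) and -0.32 in C6 (limma adjusted p = 0.0179), and that of XPO1 in the 6 clones was 0.23 (limma adjusted p = 0.0504).

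XPO4 differed between clones, with the highest line mean in C5 and the lowest in C6. The test behind this covers all 6 clones and does not say which of them differ. C5 had 22.8, 19.4, 27.5 and 18.4 FPKM and C6 had 11.7, 10.8, 11.5 and 7.86, so the 2 clones did not overlap. WT had 13.02, 13.004, 19.3 and 14.7 FPKM, EV had 12.4, 13.6, 16.3 and 13.4, and C1 to C4 had line means between 15.3 and 16.1. XPO4 was the 1 member called in the F test over the 6 clones (F = 8.43, limma adjusted p = 0.0026), a test that called 13.9% of all genes. Against WT the difference was 0.53 in C5 (SE 0.17, limma adjusted p = 0.0888) and -0.48 in C6 (SE 0.17, limma adjusted p = 0.0961), and the mean of all 6 clones differed by 0.05 (SE 0.12).

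XPO4 lies at chr13:20777329-20903048 on the minus strand, on the chromosome that also holds NUP58 (chr13:25301524-25365390), and the genes around it moved with it. Within 5 Mb of XPO4, the median difference from WT was 0.61 in C5, with 28 of 32 tested genes higher, and -0.51 in C6, with 24 of 31 lower. In C1, C2, C3, C4 and EV the same median lay between -0.05 and 0.07. Within 1 Mb it was 0.64 in C5 and -0.53 in C6. Along chromosome 13 the sign in C5 changed between PAN3, 7.38 Mb from XPO4 and at 0.41, and FLT1, at 7.56 Mb and -0.90. In the ranges of 10 to 15 Mb, 15 to 30 Mb and 30 to 100 Mb from XPO4, chosen after seeing the values, the C5 medians were -0.56, -0.69 and -0.68, with 10 of 10, 57 of 59 and 104 of 109 genes lower. In C6 the median over all 238 tested genes of chromosome 13 was -0.52. The medians of the 21 other autosomes ran from -0.24 to 0.15 in C5 and from -0.08 to 0.17 in C6. No DNA copy number was measured here, and its part in the XPO4 levels was not tested.

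**Figure D2:**
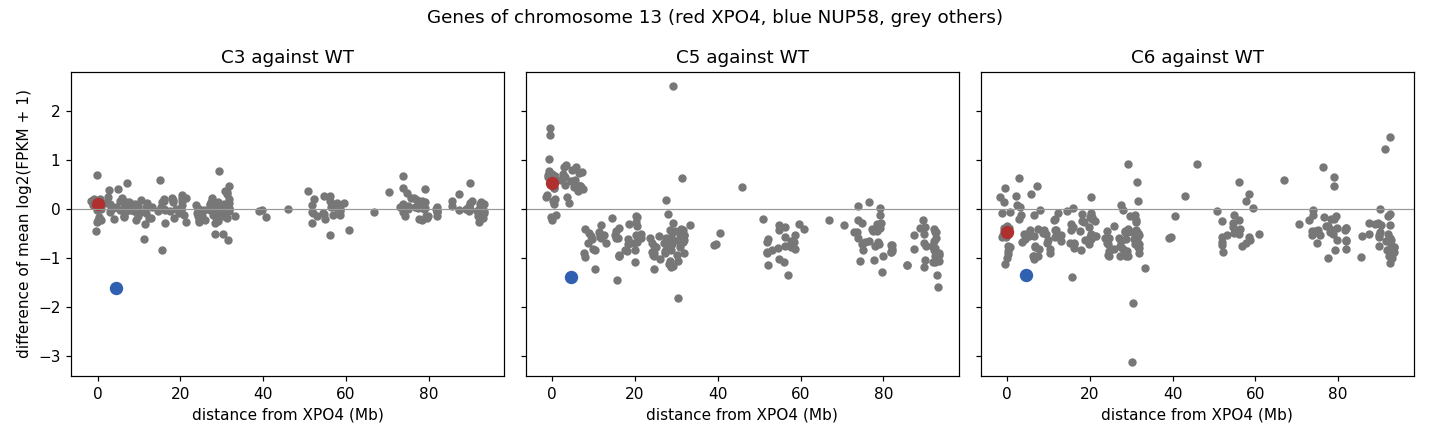
Difference from WT in mean log2(FPKM + 1) of each tested gene of chromosome 13 (y axis) against its distance from XPO4 in Mb (x axis), in C3, C5 and C6, with XPO4 in red, NUP58 in blue and other genes in grey. In C3 the genes centre on 0, in C5 they lie mostly above 0 up to 7.38 Mb from XPO4 and mostly below 0 beyond, and in C6 they lie mostly below 0 throughout.

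XPO5, the microRNA precursor exporter at chr6:43522334-43576038, had higher values in most clone libraries. WT had 36.0, 31.6, 50.7 and 42.3 FPKM and EV had 37.4, 34.5, 49.3 and 44.9. The clone libraries ran from 36.4 to 71.4 FPKM with a median of 47.7, and 9 of 24 lay above all WT and EV libraries with none below. The difference from WT was 0.27 (SE 0.12, limma adjusted p = 0.166). With the replicate number as a block the same difference had an adjusted p of 0.0429 and XPO5 was called. The number pairs C1 to C4 with WT, as described with the processing, and clone exceeded the same-numbered WT library in 13 of 16 of those pairs. C6 was the highest line, at 57.5, 53.4, 71.4 and 45.6 FPKM, with a difference of 0.50 (SE 0.17, limma adjusted p = 0.0916). The 72 tested genes within 5 Mb of XPO5 had a median of 0.11 in C6, below the difference of XPO5 itself. POLR1C overlaps XPO5 on the opposite strand at a mean of 35.6 FPKM in HAP1, and the strand used in counting was not given, so reads of the shared stretch may count for either gene.

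XPO6, the actin exporter, had the steadiest line means of the 7 members. Its line means in HAP1 ran from 76.3 FPKM in C4 to 88.7 in C5, a ratio of 1.16 between the highest and lowest line, against 2.11 for XPO4, 1.59 for XPOT and 1.26 for XPO7. The difference from WT was 0.02 (SE 0.09, limma adjusted p = 0.925). Its libraries in WT were 81.9, 98.1, 83.4 and 66.3 FPKM, a range that held 23 of the 24 clone libraries.

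XPOT, the tRNA exporter, had its highest values in 3 single libraries and not in any 1 line. WT had 69.1, 87.2, 67.1 and 58.0 FPKM. C1 had 76.4, 148, 67.3 and 61.8, C2 had 88.4, 188, 69.6 and 61.1, and C4 had 78.7, 135, 61.9 and 61.7. The 3 high values are replicates 2, which also had the 3 highest ASNS values of HAP1, at 451, 428 and 434 FPKM. The mean of the clones differed from WT by 0.17 (SE 0.21, limma adjusted p = 0.723). Without C1 replicate 2 the C1 difference went from 0.25 to -0.03, and without C4 replicate 2 the C4 difference went from 0.20 to -0.05.

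XPOT was highest in the library with the most ASNS in 6 of 8 HAP1 lines. Within lines, XPOT followed ASNS and most other members went the opposite way. After each line's mean was subtracted, Pearson's r with ASNS over the 32 HAP1 libraries was 0.88 for XPOT (Spearman's rho 0.87), with a permutation p of 1e-05, the smallest that 100000 permutations within lines can give. It was 0.83 without the 2 libraries farthest from the median of ASNS. XPO6 also had a positive r (0.71, rho 0.77, permutation p = 1e-05, and 0.76 without the 2 libraries). CSE1L had r = -0.80 (rho -0.70, permutation p = 2e-05, -0.70 without them), XPO5 -0.74 (rho -0.76, permutation p = 1e-05, -0.76 without them), XPO1 -0.68 (rho -0.58, permutation p = 5.4e-04, -0.59 without them) and XPO4 -0.59 (rho -0.58, permutation p = 0.00124, -0.61 without them). XPO7 had r = 0.29 (rho 0.24, permutation p = 0.132, 0.43 without them). Permutation tests were run on these 7 relations, and their p-values are two-sided and unadjusted. The permutations treat the libraries of a line as exchangeable, which the highest ASNS in replicate 2 of 7 of 8 lines puts in doubt, so the p-values may be too small. No p was computed with the replicate number taken into account. With both line and number means subtracted r was 0.74 for XPOT, 0.48 for XPO6, -0.63 for CSE1L, -0.53 for XPO1, -0.55 for XPO4, -0.50 for XPO5 and -0.10 for XPO7. Such relations were common in these libraries: of 13179 tested genes, 30.4% had an r over 0.5 and 21.9% an r under -0.5. An r as high as that of XPOT was held by 1.97% of genes, one as low as that of CSE1L by 5.96%, XPO5 by 9.57%, XPO1 by 13.3% and XPO4 by 18.1%, and one as high as that of XPO6 by 14.3%. In the 15 HCT116 libraries, with clone and control means subtracted, XPOT had r = 0.77 (rho 0.79), CSE1L -0.62 (rho -0.56), XPO1 -0.59 (rho -0.40), XPO4 -0.54 (rho -0.45), XPO7 -0.33 (rho -0.39) and XPO5 -0.07 (rho 0.01), while XPO6 had -0.52 (rho -0.47), the sign opposite to HAP1. In the 12 libraries not numbered 3, r was 0.84 for XPOT, -0.83 for XPO1, -0.79 for CSE1L, -0.74 for XPO4, -0.57 for XPO6, -0.36 for XPO7 and -0.30 for XPO5.

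The promoter windows of these genes are shown because their transcripts moved together or apart with ASNS. The windows, from RefSeq on GRCh38.p14, run from 250 bases before the gene start to 50 after it and are written 5′ to 3′ on the strand of the gene. Capitals mark TGATGNAA, the core of the amino acid response element, and CCAAT, each searched on both strands. TGATGNAA occurs in 3.62% and CCAAT in 34.6% of all 35116 windows. ASNS (chr7:97872359-97872658, minus strand), XPOT (chr12:64404142-64404441, plus strand), CSE1L (chr20:49046062-49046361, plus strand) and XPO1 (chr2:61538307-61538606, minus strand) read as follows.
ASNS: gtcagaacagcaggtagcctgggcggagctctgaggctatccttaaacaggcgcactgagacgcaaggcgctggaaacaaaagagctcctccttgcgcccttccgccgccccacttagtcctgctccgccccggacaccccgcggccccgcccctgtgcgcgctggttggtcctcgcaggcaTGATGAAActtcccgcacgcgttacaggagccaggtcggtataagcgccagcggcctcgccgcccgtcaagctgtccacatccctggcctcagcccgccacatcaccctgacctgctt
XPOT: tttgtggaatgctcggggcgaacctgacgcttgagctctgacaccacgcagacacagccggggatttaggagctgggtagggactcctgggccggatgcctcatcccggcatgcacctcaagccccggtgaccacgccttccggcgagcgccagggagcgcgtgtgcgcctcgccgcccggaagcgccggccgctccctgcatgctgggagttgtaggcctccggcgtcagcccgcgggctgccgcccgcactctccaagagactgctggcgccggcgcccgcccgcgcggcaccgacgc
CSE1L: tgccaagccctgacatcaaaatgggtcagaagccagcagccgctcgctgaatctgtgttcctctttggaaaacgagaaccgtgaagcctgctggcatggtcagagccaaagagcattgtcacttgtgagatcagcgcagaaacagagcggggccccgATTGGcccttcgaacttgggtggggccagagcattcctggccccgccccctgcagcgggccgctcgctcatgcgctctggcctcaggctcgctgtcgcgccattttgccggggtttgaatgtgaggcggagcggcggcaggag
XPO1: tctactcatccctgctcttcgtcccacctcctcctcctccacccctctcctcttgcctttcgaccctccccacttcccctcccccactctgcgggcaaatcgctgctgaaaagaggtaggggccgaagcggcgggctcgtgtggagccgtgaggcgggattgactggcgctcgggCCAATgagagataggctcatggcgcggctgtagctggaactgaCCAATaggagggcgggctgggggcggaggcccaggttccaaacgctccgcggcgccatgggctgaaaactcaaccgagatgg
XPO1 and ASNS each have a second window, not shown, with 0 matches to either motif. The ASNS window shown holds 1 match to TGATGNAA and the XPOT, CSE1L and XPO1 windows hold 0. CCAAT was matched 2 times in the XPO1 window shown and 1 time in CSE1L, XPO4 and XPO6, and 0 times in XPOT and XPO5. A match is a run of letters and not a measured binding site.

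In HCT116, XPO7 was again the member farthest below the controls, and it passed the threshold only without clone replicate 3 or without all libraries numbered 3. The clone had 16.3, 16.6, 27.0 and 19.3 FPKM, of which the library labelled replicate 3 is the highest, and the 11 controls ran from 19.6 to 28.5 with a median of 23.2. Clone replicates 1, 2 and 4 were below all controls. The difference was -0.26 (SE 0.12, limma adjusted p = 0.472, exact two-sided permutation p = 0.0432 over 1365 arrangements, unadjusted, among 7 such tests). Without clone replicate 3 it was -0.42 (limma adjusted p = 0.0432), in a fit that called 4.27% of all genes. Without all libraries numbered 3 it was -0.45 (limma adjusted p = 0.0328), in a fit that called 5.92%. XPO7 was the 1 member called in each. Within replicate numbers the clone was below all its controls in numbers 1, 2 and 4, and above them in number 3.

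The HCT116 clone was compared with 11 controls by limma over 12960 genes and 0 members and 0 genes were called (background 0%), against 555 of 12984 genes without clone replicate 3 and 769 of 13000 without all libraries numbered 3. At an unadjusted p under 0.05 there were 1342 genes and 1 member, XPO7, and the test without moderation called 17 genes and 0 members. XPO1 had 137, 116, 126 and 138 FPKM in the clone against 72.9 to 145 in the controls (median 125), with a difference of 0.14 (SE 0.16, exact permutation p = 0.456). CSE1L had 102, 90.0, 168 and 90.1 FPKM against 70.7 to 172 (median 130), with a difference of -0.16 (SE 0.24, exact permutation p = 0.563). In the controls numbered 1, where ASNS was 218 to 316 FPKM, CSE1L was at 70.7 to 82.6 and XPO1 at 72.9 to 88.0, the lowest control values of each gene. The control with the most ASNS, EV1 replicate 3 at 350 FPKM, did not share this, with CSE1L at 128 and XPO1 at 134. XPOT had 46.98, 46.8, 55.6 and 49.8 FPKM against 36.7 to 76.9, with a difference of -0.20 (SE 0.17, exact permutation p = 0.300). With ASNS as a covariate, a setting added after seeing the data, the XPOT difference was 0.19 (limma adjusted p = 0.514). XPO4 (0.16, SE 0.19), XPO5 (0.10, SE 0.11) and XPO6 (0.03, SE 0.10) had exact permutation p of 0.434, 0.377 and 0.766. Without the libraries numbered 3 the differences were 0.20 for XPO1, -0.38 for CSE1L, 0.050 for XPO4, 0.071 for XPO5, -0.039 for XPO6 and -0.28 for XPOT, and none of these was called.

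Between the unedited lines most genes differed, members or not. Over 8 unedited HAP1 and 11 unedited HCT116 libraries limma called 5 of 7 members, all higher in HAP1, beside 68% of all 13538 genes called and 39.5% called higher in HAP1, and the median of all genes was itself 0.10 higher in HAP1. XPO7 had the largest difference among the members, at 41.4 ± 3.21 FPKM (SD, n = 8) against 23.6 ± 2.66 (SD, n = 11), a log2 difference of 0.79 (SE 0.07, limma adjusted p = 1.55e-09). XPO1 (0.50, SE 0.12), CSE1L (0.48, SE 0.16), XPO5 (0.46, SE 0.10) and XPO6 (0.39, SE 0.08) had limma adjusted p of 7.9e-04, 0.0103, 3.6e-04 and 2.6e-04. XPO4 (0.30, SE 0.14, limma adjusted p = 0.0626) and XPOT (0.22, SE 0.13, limma adjusted p = 0.145) missed the threshold. Without the HCT116 libraries numbered 3, added after seeing the data, the same 5 members were called, beside 66.2% of all 13553 genes. RANBP17, the closest relative of XPO7, had 0 to 0.195 FPKM in HAP1 and 2.10 to 5.03 in HCT116. The cell type and the culture history of the 2 lines cannot be told apart here.

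The effect of editing was compared between the lines by an interaction contrast, in which limma called 0 members and 1.8% of 13629 genes. Without the HCT116 libraries numbered 3 it called 0 members and 6.67% of 13632 genes, and the XPO7 value was 0.20 (limma adjusted p = 0.312). For XPO7 the change in HAP1 minus that in HCT116 was 0.02 (SE 0.12, limma adjusted p = 0.968), and for XPOT it was 0.37 (SE 0.29, limma adjusted p = 0.639). At an unadjusted p under 0.05 there were 1921 genes and 0 members. A p that misses the threshold does not show that the effects were alike.

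Of the genes of the pathways around the exportins, 3 were called in HAP1, all of them transport receptors. The same comparison called 6.6% of all genes tested, so a few calls among these lists are not out of the ordinary. In the mean of the 6 clones against WT, 0 of 7 genes of the Ran cycle, 0 of 10 XPO1 partners, 0 of 10 genes of microRNA processing and 0 of 20 cytosolic aminoacyl-tRNA synthetases were called, with medians of 0.01, -0.07, -0.00 and -0.04 against -0.02 over all genes. Of 6 tested importin alpha genes, the cargo of CSE1L, KPNA4 rose, from 15.1 to 22.4 FPKM (0.54, SE 0.11, limma adjusted p = 0.0015), with a median of 0.06 over the 6. Of 12 other receptors of the importin beta superfamily, TNPO1 rose by 0.51 (SE 0.14, limma adjusted p = 0.0241) and TNPO2 by 0.48 (SE 0.12, limma adjusted p = 0.0145), both carriers of RNA-binding proteins, and the median was 0.02. Of the 4 actin and profilin genes carried by XPO6 none was called, and their median was -0.22, with ACTB at -0.32 (SE 0.12, limma adjusted p = 0.108). Of 4 cargo genes of XPO4 none was called (median 0.12), and of 19 amino acid response genes none was called (median -0.02). In the HCT116 fit of all 15 libraries none of these lists had a called gene, with KPNA4 at 0.39 (SE 0.13), TNPO1 at 0.54 (SE 0.17) and TNPO2 at 0.37 (SE 0.13). There the medians were -0.39 over 20 tRNA synthetases, all 20 lower, and -0.53 over 18 amino acid response genes, 17 of them lower, against 0.00 over all genes, beside the ASNS levels of 42.6 to 75.3 FPKM in the clone and 66.8 to 350 in the controls. Without the libraries numbered 3, a fit that called 5.92% of all genes, 7 of 20 tRNA synthetases fell in the clone (median -0.41), among them IARS by 0.52 (SE 0.09, limma adjusted p = 0.0062) and WARS by 0.59 (SE 0.11, limma adjusted p = 0.0089). Of 18 amino acid response genes 2 fell, the amino acid transporter SLC7A5 (-1.22, limma adjusted p = 0.0027) and MTHFD2 (-0.57, 0.0325), and of 10 XPO1 partners 1 fell, NXT1 (-0.48, 0.0364). TNPO1 (0.69, limma adjusted p = 0.0399) and TNPO2 (0.50, 0.0409) rose, and no gene of the other 5 lists was called. These genes were named after their values were seen.

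The genes whose levels most resembled each member over the 32 HAP1 libraries, out of 9866 with a mean of at least 5 FPKM, differed by member. XPOT was nearest to SLC7A11, GARS and CEBPB (r = 0.94, 0.94 and 0.92). CSE1L was nearest to NAA50, GNAI3 and RRM1 (0.95, 0.93 and 0.93), and XPO1 to ZNF614, NECTIN3 and PGM2 (0.87, 0.86 and 0.84). XPO4 was nearest to ZDHHC20, SKA3 and RNF6 (0.88, 0.83 and 0.82), the first 3 of its list and all genes of chromosome 13. XPO5 was nearest to FAM208B, CDC73 and PHF20L1 (0.87, 0.85 and 0.85), XPO6 to CAND2, ITGB1 and PAQR5 (0.81, 0.80 and 0.77), and XPO7 to CAST, CARD10 and IQGAP3 (0.72, 0.71 and 0.71). These values are a description over libraries that share depth and the ASNS range.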

How the data were processed

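RNA was taken with RNeasy columns and made into TruSeq libraries. As stated in the study's methods and the submitters' processing notes, reads were checked with FastQC, aligned with STAR to GRCh38 and quantified with RSEM. The authors deposited 1 table of FPKM values with 47 library columns, all of them used here (0 columns were left out), and no normalization beyond FPKM was stated. Read counts and strand were not given in the sources used here, so depth is known only relatively. The 7 members and all gene lists were chosen with earlier results of these data known. Values were analysed as log2(FPKM + 1) in R 4.3.3 with limma 3.58.1 (trend on), on genes with a mean of at least 1 FPKM, with Benjamini-Hochberg adjustment over all of them and calls at an adjusted p under 0.05. Fold changes on this scale understate those of low genes. The script was tested on simulated data. Permutation tests and figures used Python. Gene positions are from GENCODE release 44 (GRCh38), in which 56373 of 57507 table genes matched. Same-numbered libraries deviated together (r over 0.1 in 4 of 4 pairs with WT) in C1, C2, C3, C4 and EV. This held for 2 of 4 pairs in C5 and in C6, and for 1 of 4 pairs of the HCT116 clone with its controls. From each list the called genes, up to 5, are named; for likeness, the 3 nearest genes. No 2 libraries were identical (0 pairs). Alternatives were another pseudocount, no filter, 2 rescalings, no trend, an unmoderated test with unequal variances, a block, other controls and each library left out. The promoter of XPO7 is not shown here.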

Additional observations from a re-analysis of the deposited data

Results flagged for a closer look

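Of 70 groups of 4 libraries, 3 had 1 member value far from the other 3, where chance flags about 1 in 20 groups. CSE1L in HAP1 C4 replicate 2 was at 103 FPKM against 170 to 172 in the other C4 libraries. CSE1L in the HCT116 library labelled clone replicate 3 was at 168 FPKM against 90.0 to 102 in the other clone libraries, and this library also has NUP58 and XPO7 at control levels. XPOT in HAP1 C1 replicate 2 was at 148 FPKM against 61.8 to 76.4 in the other C1 libraries. The C1 and C4 libraries are among the 3 with the highest ASNS in HAP1.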

How the results depend on the processing

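In the mean of the 6 clones against WT, the count of called exportins went from 1 (6.6% of all genes called) to 2 with the replicate number as a block (12.6%), 2 with ASNS as a covariate (14.7%, added after seeing the data), 3 with WT and EV together as the control (17.5%), and 0 with EV as the control, with the unmoderated test, with an unadjusted p under 0.01 and a fold over 2, and without all libraries numbered 2 (added after seeing the data). It ranged from 0 to 1 with each library left out, and was 0 without WT replicate 2. In C1 the count went from 0 to 1 in the fit of all 32 libraries (3.32% of all genes). In C5 it went from 0 (7.55%) to 2 with the block (16.3%), 3 with ASNS as a covariate (20.7%) and 2 in the fit of all 32 libraries (12.3%). With a library left out the C5 count ranged from 0 to 2. It was 2 without WT replicate 3 (772 of 13153 genes called) and 1 without C5 replicate 2 (918 of 13118). In C6 the count went from 0 (11.7%) to 4 with ASNS as a covariate (24.4%) and 3 in the fit of all 32 libraries (15.7%). With a library left out the C6 count ranged from 0 to 1. CSE1L was called without WT replicate 2 (2008 of 13346 genes called) and XPO5 without WT replicate 3 (1258 of 13382). In C5 and C6 only 2 of 4 same-numbered pairs with WT deviated together (r over 0.1), and the block called no member in C6. In HCT116 the count went from 0 to 1 without all libraries numbered 3 (5.92%), and from 0 to 1 without clone replicate 3 (4.27%). Between the unedited lines, scaling to TPM called XPO4 (limma adjusted p = 0.0374) and XPOT (0.0484), beside 68.2% of all genes. XPOT (limma adjusted p = 0.00104) was called with ASNS as a covariate (67.8% of all genes). With WT libraries alone (41.5% of all genes) XPO6 was not called (limma adjusted p = 0.132). Beyond XPO5 in the 6 clones and XPO1 and XPO4 in C5, the block changed no call. Where a call moved, the cause was not tested.

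No sign change involved a called value. XPO4 in the 6 clones was at -0.047 without C5. With a library left out, differences ranged from -0.0098 to 0.17 for XPO4 and -0.077 to 0.11 for XPO6 in the 6 clones; from -0.27 to 0.021, -0.20 to 0.0025, -0.26 to 0.026, -0.19 to 0.064 and -0.076 to 0.14 for CSE1L in C1 to C5; from -0.029 to 0.39, -0.055 to 0.32 and -0.038 to 0.16 for XPOT in C1, C4 and C5; from -0.045 to 0.14, -0.063 to 0.12, -0.026 to 0.16 and -0.14 to 0.050 for XPO6 in C1, C2, C3 and C6; from -0.041 to 0.15 and -0.020 to 0.16 for XPO4 in C2 and C4; and, in EV, from -0.071 to 0.056 for XPO1, -0.16 to 0.030 for XPO4, -0.049 to 0.17 for XPO5, -0.13 to 0.053 for XPO6 and -0.087 to 0.0095 for XPO7; in HCT116 from -0.0047 to 0.078 for XPO6. In EV, XPO1 was at 0.0025 scaled by median ratios, and with ASNS as a covariate XPO5 was at -0.026 and XPO6 at 0.0063. In HCT116 with that covariate XPO1, XPO4 and XPO6 were at -0.13, -0.13 and -0.11 and XPOT at 0.19, CSE1L was at 0.14 against the 2 agreed WT controls, and XPO6 was at -0.039 without libraries numbered 3. The XPO6 interaction was 0.0056 scaled by median ratios and 0.060 without HCT116 libraries numbered 3. The r of XPO7 with ASNS went to -0.10 with number means subtracted. FPKM without counts gives no counting error for a single library.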
